A study of Homo sapiens with 5 samples.

Results

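The HES and HEY genes encode basic helix-loop-helix repressors, and 8 of them were followed here: HES1, HES2, HES4, HES5, HES6, HEY1, HEY2 and HEYL. They were taken by gene symbol from the gene lists of the deposited matrices, where each symbol stood on 1 row with the same Ensembl identifier in every library. The lists held 33538 genes for D22 to D26 and 36601 for D0 to D10, and 32732 identifiers were in both.

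The cells were WA09, an established human embryonic stem cell line with a wild-type genotype, differentiated toward neurons that make gonadotropin-releasing hormone (GnRH) and profiled in droplets by single-cell RNA sequencing. D0 was undifferentiated. D5_dSMADi and D10_dSMADi had received dual SMAD inhibition (dorsomorphin and SB431542) alone, and D5_XAV939 and D10_XAV939 had received in addition 10 µM XAV939, a tankyrase inhibitor that lowers Wnt signaling. These 5 were tagged with oligonucleotides and pooled in 1 droplet run. D22, D24 and D26 had received dual SMAD inhibition without XAV939, then the growth factor FGF8 from D11 to D20 and the Notch inhibitor DAPT at 20 µM from D21. They had also been frozen at D17 and thawed, and each was a run of its own. All D22, D24 and D26 cells carried DAPT and there was no culture without it, so an effect of DAPT cannot be told apart from time. Each condition was 1 library, so no p-value could be given: a ratio is a description of those libraries, and every interval (95%) covers counting error only.

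HES and HEY repressors are the best known direct targets of Notch. When a ligand such as DLL1 on a neighboring cell binds a Notch receptor, gamma-secretase frees the receptor's intracellular part, which joins the DNA-binding protein RBPJ and turns on HES and HEY genes. Their products recruit Groucho (TLE) corepressors and silence proneural genes such as NEUROG1 and NEUROG2, which keeps progenitors of the nervous system from becoming neurons too early. HES6 is the exception of the family: it is induced by proneural factors, binds HES1 and opposes it, and favors neuronal differentiation.

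RBPJ recognizes a site whose core is TGGGAA, and the stretches below hold the copies nearest to the start of the genes that carry one in forward orientation. They are RefSeq promoter sequence on GRCh38.p14, written 5′ to 3′ on the strand of the gene and ending before the RefSeq start, with the core in capitals.
HES1: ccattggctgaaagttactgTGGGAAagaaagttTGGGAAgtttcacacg
HES4: tcgattggctggggcgagtgTGGGAA
HES5: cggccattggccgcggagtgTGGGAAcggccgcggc
HEYL: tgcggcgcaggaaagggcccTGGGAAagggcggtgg
The HES1 stretch is chr3:194136044-194136093 on the plus strand, and it alone holds 2 cores. The others lie on the minus strand, at chr1:1000168-1000193 for HES4, at chr1:2530328-2530363 for HES5 and at chr1:39639727-39639762 for HEYL. The last forward core ended 65 bases before the RefSeq start in HES1, 71 in HES4, 75 in HES5 and 94 in HEYL. The HES4 stretch stops at its core because a longer GENCODE transcript begins there.

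Promoter windows were at hand for 7 members, all but HEY1. The core TGGGAA or its reverse TTCCCA was found within 250 bases before the start in 5 of them, HES1, HES4, HES5, HEYL and HEY2, and in 20.85% of all 35116 promoters. HES2 and HES6 held none in this window. The N box CACNAG, a site of HES proteins, was found in HES1 alone, against 32.04% of all promoters. The class C site CACGCG was also found in HES1 alone, against 9.716%, and the E box CACGTG of HEY proteins in no member, against 6.345%. All were searched on both strands, and a match is a run of letters, not a measured site.

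By GENCODE 44 on GRCh38, HES4 (998962 to 1000172), HES5 (2528745 to 2530263), HES2 (6412418 to 6424670) and HEYL (39623435 to 39639643) lie on the minus strand of chromosome 1. HES6 lies on the minus strand of chromosome 2 (238238267 to 238240662), HES1 on the plus strand of chromosome 3 (194136148 to 194138732), HEY2 on the plus strand of chromosome 6 (125747664 to 125761269) and HEY1 on the minus strand of chromosome 8 (79762371 to 79767857). HES5, HES6, HEY2 and HEYL each overlap 1 long noncoding RNA gene on the opposite strand, and how strand was counted is not given in the sources used here.

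After the limits on cells, 1008 (D0) to 11056 (D26) cells per library remained, with 58073098 to 130440502 UMIs (unique molecular identifiers, each counting 1 captured transcript). The median cell held 24291 to 69456 UMIs at D0 to D10 and 7180 to 12179 at D22 to D26. In all 5 tagged libraries every barcode was led by the oligonucleotide of its labelled condition. The 5 shared no barcode, and pairs of D22, D24 and D26 shared 27 to 37. D0 shares its label of neural progenitor with D5 and D10, but it held 1244 UMIs per 1000000 UMIs (CPM) of the pluripotency gene POU5F1 and 0.830 CPM of SOX1. Among the neuron libraries D22 still held 224 CPM of the progenitor gene SOX2 and 541 CPM of the division genes MKI67 and TOP2A together, against 10.6 and 3.89 CPM at D26. Since the runs, the dissociation and the gene annotation differed between D0 to D10 and D22 to D26, levels were compared within each set. In summed libraries, fewer cells of a type and less RNA per cell cannot be told apart.

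The 8 genes together made up 151 CPM at D0, 316 in D5_dSMADi, 221 in D5_XAV939, 1308 in D10_dSMADi and 1270 in D10_XAV939. They made up 1455 CPM at D22, 121 at D24 and 124 at D26. Different members held the largest share of these UMIs in turn. HES6 held 47.1% at D0, HES5 53.9% and 43.6% at D5 without and with XAV939 and 72.5% and 73.0% at D10, HES6 95.2% at D22, and HES4 57.1% at D24 and 52.1% at D26.

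**Figure D1:**
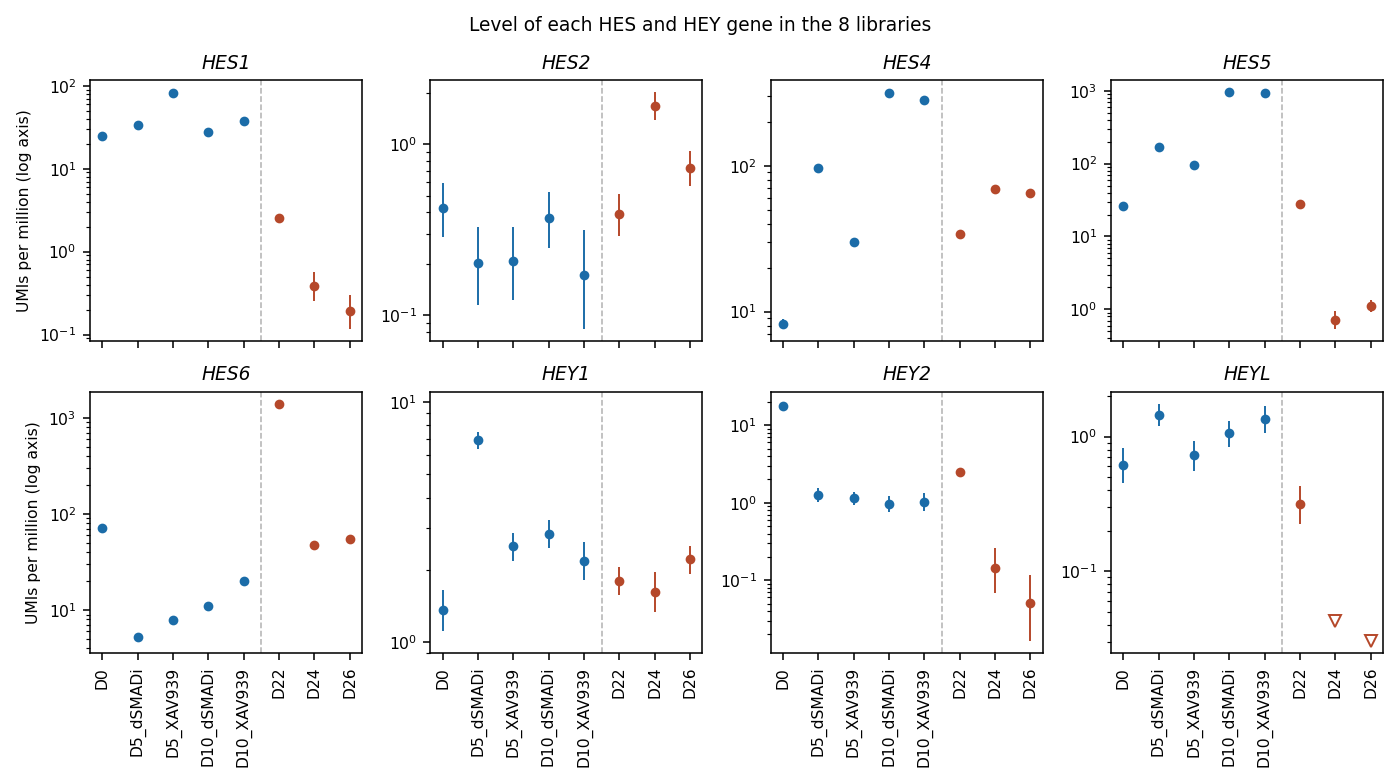
Level of each member (vertical axis, CPM on a log axis that differs between panels) in the 8 libraries (horizontal axis); points are library sums, bars the exact Poisson interval, open triangles the level of 3 UMIs where none was counted, and the dashed line separates the set of D0 to D10 (blue) from D22 to D26 (red). HES5 stood at 948 and 927 CPM at D10, HES6 at 1386 CPM at D22, and HEYL had no UMI at D24 or D26.

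HES5, the Notch target that marks neural stem cells and radial glia, had 26.5 CPM at D0, 171 in D5_dSMADi, 96.1 in D5_XAV939, 948 in D10_dSMADi and 927 in D10_XAV939. It had 27.7 CPM at D22, 0.713 at D24 and 1.13 at D26. Within D0 to D10 it was thus highest in both D10 libraries, and within D22 to D26 at D22. Within each set no intervals of neighbouring levels overlapped except those of D24 and D26. D5_dSMADi was 6.44-fold (6.15 to 6.76) and D5_XAV939 3.63-fold (3.46 to 3.82) above D0. D10 was 5.56-fold (5.46 to 5.66) above D5 without XAV939 and 9.64-fold (9.42 to 9.87) above it with XAV939. D24 was 38.9-fold below D22.

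HES5 was found in more cells where its level was higher. After each cell was thinned to 10000 UMIs, 21.3% of D0 cells (18.84 to 23.99), 55.0% of D5_dSMADi cells (53.0 to 57.0), 42.2% of D5_XAV939 cells (40.4 to 44.1), 91.8% of D10_dSMADi cells (90.6 to 92.8) and 89.3% of D10_XAV939 cells (87.9 to 90.6) held a HES5 UMI. Without thinning these shares were 75.5%, 78.7%, 68.3%, 96.7% and 94.0%. The highest cell held 152 HES5 UMIs, in D10_dSMADi.

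HES4, a Notch-responsive member that people have and mice lack, had 8.17 CPM at D0, 96.7 in D5_dSMADi, 30.1 in D5_XAV939, 316 in D10_dSMADi and 281 in D10_XAV939. It had 33.8 CPM at D22, 69.2 at D24 and 64.8 at D26. From D0 to D10 its libraries stood in the same order as those of HES5, from the highest in D10_dSMADi to the lowest in D0. It was the only one of the 4 abundant members (HES1, HES4, HES5 and HES6) with a higher level at D24 than at D22, 2.05-fold (1.96 to 2.13). D10 was 3.26-fold (3.18 to 3.35) above D5 without XAV939 and 9.33-fold (8.96 to 9.73) above it with XAV939. After thinning, 84.9% of D10_dSMADi cells and 81.8% of D10_XAV939 cells held a HES4 UMI.

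HES1, the Notch effector whose level oscillates in neural progenitors, had 24.7 CPM at D0, 33.9 in D5_dSMADi, 81.8 in D5_XAV939, 28.0 in D10_dSMADi and 38.0 in D10_XAV939. It had 2.58 CPM at D22, 0.385 at D24 and 0.191 at D26. Within D0 to D10 its highest library was D5_XAV939, where HES4 and HES5 were below their levels in D5_dSMADi. Within each set the intervals of neighbouring levels overlapped only between D24 and D26, which held 27 and 19 HES1 UMIs in all. D24 was 6.69-fold below D22. Leaving out the 5% of cells with most UMIs in each library brought HES1 at D24 to 0.240 CPM.

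HES6, the member that opposes HES1, had 71.0 CPM at D0, 5.23 in D5_dSMADi, 7.97 in D5_XAV939, 10.97 in D10_dSMADi and 20.1 in D10_XAV939. It had 1386 CPM at D22, 47.5 at D24 and 55.2 at D26. Among the tagged libraries it was highest in undifferentiated cells, 13.6-fold above D5_dSMADi. D24 was 29.2-fold below D22. At D22, 70.9% of cells (70.0 to 71.8) held a HES6 UMI after thinning to 1500 UMIs, and 93.8% without thinning. At D24 and D26 the thinned shares were 5.30% (4.85 to 5.78) and 7.36% (6.88 to 7.87).

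The other 4 members were scarce. HEY2, a repressor of heart and vessel development, had 17.9 CPM (16.97 to 18.9) at D0 and 0.978 to 1.27 CPM in the 4 libraries of D5 and D10, which did not differ beyond their intervals. It had 2.49 CPM at D22, 0.143 at D24 and 0.0503 at D26. HEY1, a Notch target of vessels and of the nervous system, had 6.93 CPM (6.36 to 7.53) in D5_dSMADi and 1.36 to 2.82 CPM in the other 4 libraries of D0 to D10. At D22 to D26 it had 1.63 to 2.21 CPM, with overlapping intervals between neighbours, though D26 was 1.36-fold (1.08 to 1.72) above D24.

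HEYL, the third HEY gene, had 0.619 to 1.46 CPM at D0 to D10. Intervals of neighbouring levels overlapped, but D5_dSMADi was 2.35-fold (1.66 to 3.37) above D0 and D10_XAV939 1.85-fold (1.31 to 2.62) above D5_XAV939. HEYL had 0.314 CPM at D22. None of its UMIs was counted at D24 or D26, which allows up to 0.0428 and 0.0302 CPM (3 UMIs per library) and puts them at least 7.35-fold and at least 10.4-fold below D22, leaving out the counting error of the 41 UMIs at D22. HES2 had 0.172 to 0.422 CPM at D0 to D10. It had 0.391 CPM at D22, 1.68 at D24 (1.39 to 2.01, 118 UMIs) and 0.724 at D26, and these intervals did not overlap.

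XAV939 was compared with its absence at D5 to ask how Wnt inhibition during neural induction moved these genes. With XAV939, HES1 was higher, and HES4 and HES5 were lower. A gene was called past 1.5-fold if 1 of the 2 libraries held at least 10 CPM, which 3 members did. Of these, 1 was called higher, against 3.08% of all 8181 genes tested, and 2 lower, against 1.76%. HES1 had 33.9 CPM without and 81.8 CPM with XAV939, a ratio of 2.41 (2.31 to 2.52). HES4 had 96.7 and 30.1 CPM, a ratio of 0.311 (0.297 to 0.325). HES5 had 171 and 96.1 CPM, a ratio of 0.564 (0.548 to 0.579). The 3 genes therefore did not move as a block.

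The members under 10 CPM were not called, and their ratios rest on fewer UMIs than those of the members called. Without and with XAV939 the counts were 16 and 18 for HES2, 552 and 217 for HEY1 and 417 and 691 for HES6. HES6 had 5.23 CPM without and 7.97 CPM with XAV939, a ratio of 1.52 (1.35 to 1.72). HEY1 had 6.93 and 2.50 CPM, a ratio of 0.361 (0.307 to 0.423), and HEYL 1.46 and 0.727 CPM, a ratio of 0.499 (0.361 to 0.684). The intervals of HEY2 (0.676 to 1.20) and HES2 (0.498 to 2.17) both held 1.

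The same directions were seen in the share of cells. A HES1 UMI was found, after thinning, in 23.2% of D5_dSMADi cells (21.5 to 24.9) and 50.3% of D5_XAV939 cells (48.4 to 52.1). For HES4 the shares were 50.6% (48.5 to 52.6) and 21.9% (20.4 to 23.5). Markers of cell state were called in the same comparison, 1 of 4 neural progenitor markers tested and 1 of 3 markers of pluripotent cells. The neural progenitor gene PAX6 had 157 CPM without and 82.3 CPM with XAV939, and L1TD1, a gene of pluripotent cells, 105 and 179 CPM. Not called were SOX2 (717 and 853 CPM), FABP7 (30.1 and 40.4), NES (347 and 315), POU5F1 (26.6 and 25.0) and DPPA4 (136 and 125). The part of these markers in the members' ratios was not tested. MKI67 was 1.56-fold higher with XAV939, and 49.0% against 41.6% of cells held 5 or more UMIs of MKI67 and TOP2A. Within dividing cells HES5 had a log2 ratio of -0.95, and within cells without MKI67 or TOP2A -0.50, which is not past 1.5-fold. HES1 and HES4 were past 1.5-fold in both groups of cells.

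**Figure D2:**
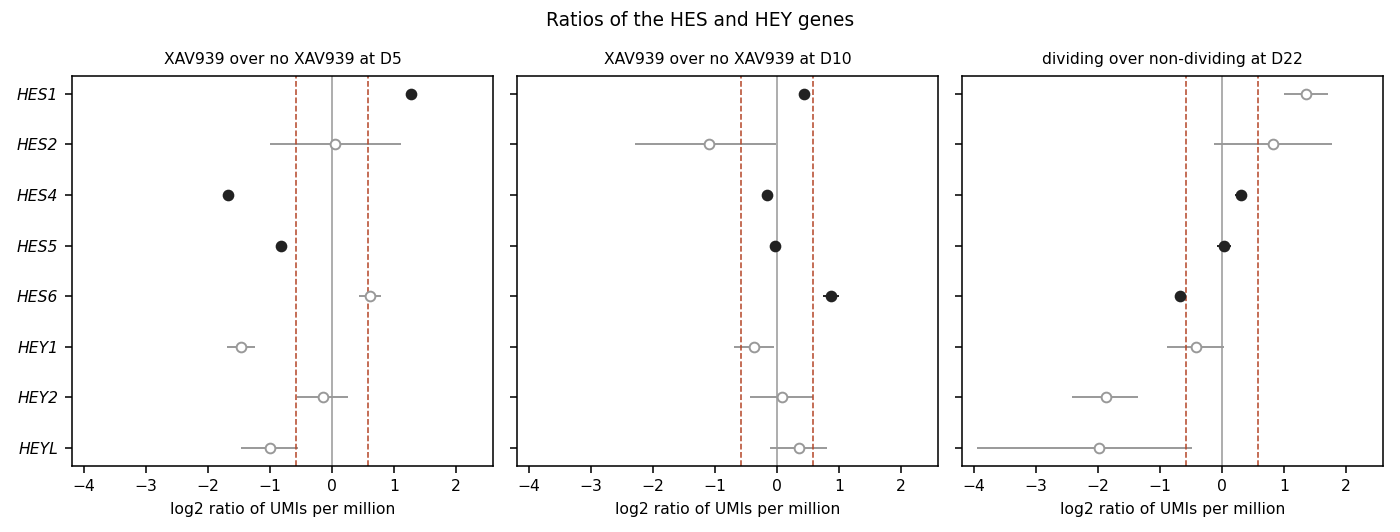
Log2 ratio of CPM (horizontal axis) of the 8 members for XAV939 over no XAV939 at D5 and at D10 and for dividing over non-dividing cells at D22; bars are the exact interval of the split of UMIs, filled points are members with at least 10 CPM in 1 of the 2 groups, open points the others, and dashed lines mark 1.5-fold. At D5 HES1 lies right of the line and HES4 and HES5 left of it, while at D10 only HES6 among the filled points lies past a line.

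At D10 HES6 was the member past 1.5-fold among those tested. Of 4 members with at least 10 CPM, 1 was called higher with XAV939, against 3.67% of 8713 genes tested, and 0 lower, against 3.68%. HES6 had 10.97 CPM without and 20.1 CPM with XAV939, a ratio of 1.83 (1.67 to 2.00). HES1 had 28.0 and 38.0 CPM, a ratio of 1.35 (1.28 to 1.44). HES4 had 316 and 281 CPM, a ratio of 0.889 (0.872 to 0.907), and HES5 948 and 927 CPM, a ratio of 0.977 (0.967 to 0.988). HES4 and HES5, both called lower at D5, thus had ratios closer to 1 at D10. The ratios of HEY2 (0.741 to 1.501) and HEYL (0.924 to 1.76) had intervals that held 1, that of HEY1 was 0.776 (0.619 to 0.969), and that of HES2 rested on 10 and 29 UMIs.

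Neuron markers differed between the D10 libraries as well. STMN2 had 20.2 CPM without and 113 CPM with XAV939, and 2 of 3 neuron markers tested (STMN2 and DCX) were called higher. In D10_XAV939, the 80 cells with 5 or more STMN2 UMIs held 83.0 CPM of HES6 (71.2 to 96.3), against 17.7 CPM (16.6 to 18.9) in cells without STMN2. HES6 was called higher with XAV939 also among cells without STMN2, at a log2 ratio of 0.68 against 0.87 over all cells. Among cells without MKI67 or TOP2A it was 1.68, and among dividing cells 0.64. HES1 had a log2 ratio of -0.02 among cells without MKI67 or TOP2A and 0.65, past 1.5-fold, among dividing cells. The scarce HEY1 had a log2 ratio of 1.15 among cells without MKI67 or TOP2A, from 22 UMIs without and 32 with XAV939. Among dividing cells it was -0.85, so its direction turned. However, 1 cell of D10_XAV939 held 19 HEY1 UMIs, and whether the turn holds without that cell was not tested. Of 5 neural progenitor markers tested at D10, only PAX6 was called, again lower, at 246 CPM without and 142 CPM with XAV939.

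Markers of other cell types also differed at D10. With XAV939, COL1A1 was called lower of 1 mesenchymal marker tested and RGS5 of 2 vascular markers. LUM, a mesenchymal marker too scarce to be called, had 1.05 CPM without and 3.31 CPM with XAV939, and the vascular marker ACTA2 had 43.5 and 48.8 CPM. The summed levels without and with XAV939 were 15.2 and 7.01 CPM for the 5 mesenchymal and 64.6 and 61.5 for the 5 vascular markers, while the 5 glia markers together had 1.41 and 1.38 CPM. The endothelial genes PECAM1 and CDH5 had at most 0.0762 CPM. The part of these cells in the ratios was not tested.

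In those STMN2 cells of D10_XAV939 the progenitor members were lower. HES5 had 267 CPM (245 to 290) there against 952 CPM (944 to 961) in cells without STMN2, and HES4 106 (92.8 to 121) against 290 (285 to 294). HES5 UMIs were found in 46.3% of the STMN2 cells after thinning. HEY1 had 12.8 CPM (8.44 to 18.6, 27 UMIs) there against 1.82 (1.47 to 2.23). However, 1 of the STMN2 cells held 19 of these 27 UMIs, so this level rests mostly on 1 cell, which the interval does not cover. In D10_dSMADi only 24 cells had 5 or more STMN2 UMIs, with 435 CPM of HES5, 165 of HES4 and 20.4 of HES6.

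The rest of the pathway was read from lists of genes. Among Notch receptors 3 of 4 were tested at D5 and at D10 and none was called, with NOTCH1 at 25.1 and 25.2 CPM in the D5 libraries. Of 3 ligands tested, JAG1 was 1.74-fold lower with XAV939 at D5, and DLL3 2.45-fold higher at D10. Of 11 nuclear partners and modifiers tested, MAML3, a coactivator of the RBPJ complex, was called higher at D5 (1.57-fold) and LFNG, a glycosyltransferase acting on Notch, lower (1.67-fold). At D10 MAML2 (2.70-fold) and MAML3 (1.64-fold) were called higher, and LFNG (1.57-fold) and DTX4 (1.88-fold) lower. NRARP, another target of Notch, had ratios of 0.864 at D5 and 1.02 at D10. RBPJ itself had 144 to 176 CPM within D0 to D10 and 128 to 156 CPM within D22 to D26.

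Of 4 Groucho corepressors tested at D5, TLE1 was called lower (1.95-fold), and none was called at D10. The ID genes, targets of BMP signaling that block proneural factors by another route, were all tested at D5, and 3 of 4 were called lower with XAV939: ID1 had 328 CPM without and 66.5 CPM with it, ID3 1068 and 397, and ID4 104 and 43.5. At D10 only ID2 was called, 2.69-fold higher. No gene of the proneural list reached 10 CPM at D5 or D10. Of 7 Wnt feedback genes none was tested at D5 and 2 at D10, neither called. At D5, AXIN2 had 4.63 CPM without and 4.13 CPM with XAV939, a ratio of 0.892 (0.769 to 1.03), while NKD1 had 2.05 and 3.61 CPM, a ratio of 1.76 (1.46 to 2.15). The other 5 had ratios of 0.212 to 1.09. Of these, SP5 (0.0388 to 0.772, from 13 UMIs without and 3 with XAV939) and TNFRSF19 (0.587 to 0.863) had intervals below 1. At D10, AXIN2 had a ratio of 0.759 (0.631 to 0.911) and ZNRF3 one of 0.793 (0.715 to 0.878). That of LEF1 was 1.01 (0.904 to 1.12) and that of NKD1 1.22 (1.004 to 1.49), and the intervals of TNFRSF19 and RNF43 held 1.

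For the lists as a whole, the median log2 ratio at D5 was -0.83 over the 3 members tested and 0.05 over all genes tested. At D10 it was 0.20 over 4 members and 0.02 over all genes.

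At D22, 2043 dividing cells (5 or more UMIs of MKI67 and TOP2A, 21.5% of cells) were compared with 5898 cells that had none of these UMIs. The other 1582 cells were left out. Both groups came from 1 library. HES6 was lower in dividing cells, HES4 and HES5 differed by less than 1.5-fold, and the other 5 members had under 10 CPM in both groups. Of the 3 members tested, 0 were called higher, against 14.0% of 8259 genes, and 1 lower, against 12.4%. HES6 had 956 CPM in dividing and 1527 CPM in non-dividing cells, a ratio of 0.626 (0.618 to 0.633). HES4 had 40.1 and 32.4 CPM, a ratio of 1.24 (1.16 to 1.32), and HES5 26.6 and 26.2 CPM, a ratio of 1.02 (0.941 to 1.099). HES1 had 4.19 and 1.64 CPM, a ratio of 2.56 (2.00 to 3.28) from 156 and 119 UMIs, and was too scarce to be called. HEY2 had 0.941 and 3.43 CPM, a ratio of 0.274 (0.187 to 0.392).

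The dividing cells were deeper, with a median of 17361 UMIs against 11725. Among cells of 8000 to 16000 UMIs the log2 ratio of HES6 was -0.57 and no longer past 1.5-fold, and that of HES5 was 0.66 and past it. Among cells with 2 or more SOX2 UMIs in both groups, that of HES6 was -0.57, that of HES5 -0.52 and that of HES1 0.46, none past 1.5-fold.

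**Figure D3:**
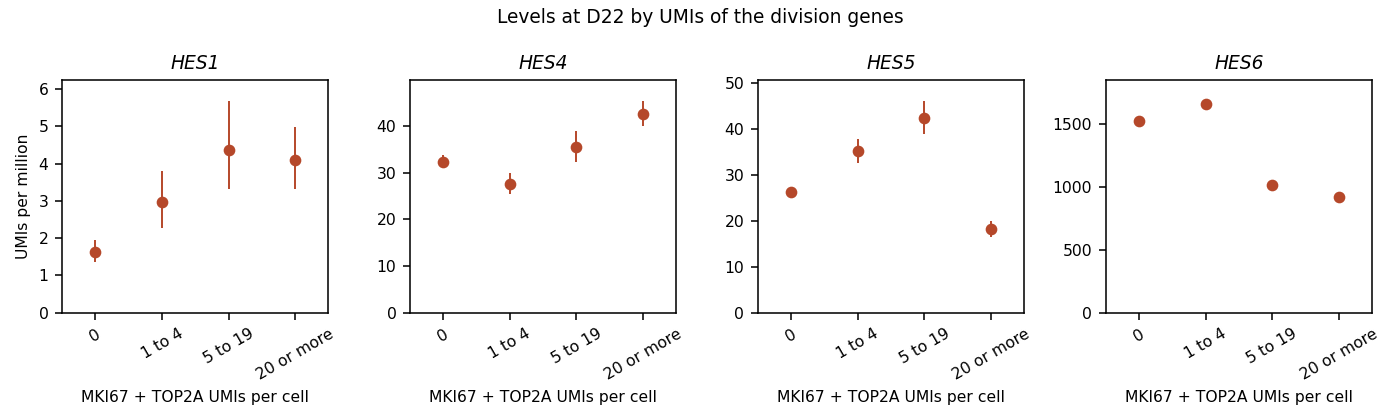
Level of HES1, HES4, HES5 and HES6 (vertical axis, CPM, from 0) in D22 cells grouped by their UMIs of MKI67 and TOP2A (horizontal axis); points are sums over the cells of a group and bars the exact Poisson interval. HES6 is highest with 1 to 4 UMIs, at 1663 CPM, and HES5 with 5 to 19, at 42.3 CPM.

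Grouping cells in 4 steps showed that HES5 did not follow division in 1 direction. It had 26.2 CPM at 0 UMIs, 35.1 at 1 to 4, 42.3 at 5 to 19 and 18.2 at 20 or more. HES6 had 1527, 1663, 1014 and 924 CPM, and HES1 1.64, 2.96, 4.37 and 4.10 CPM. The cells with 20 or more of these UMIs had a median of 21022 UMIs in all, against 11725 to 12394 in the other groups.

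The genes around the members differed with division too. Of 6 proneural genes tested, NEUROG1, NEUROG2, NEUROD1 and NEUROD4 were called lower in dividing cells (1.71-fold to 3.07-fold). Of the others, 1 was called higher and 1 was not called. NOTCH2 was 5.53-fold and NOTCH3 2.06-fold higher in dividing cells, and NOTCH1 was not called. DLL1 was 1.69-fold higher and DLL3, a ligand family member that acts inside the cell, 2.20-fold lower. SOX2 was 3.02-fold higher and all 5 neuron markers were called lower. The median log2 ratio was 0.03 over the 3 members tested and -0.02 over all genes tested.

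The same split was made in the tagged libraries of D5 and D10. In D5_dSMADi, HES1, HES4 and HES5 had ratios of dividing over non-dividing cells of 1.17 (1.05 to 1.31), 1.33 (1.25 to 1.42) and 1.41 (1.34 to 1.49), none past 1.5-fold. In D5_XAV939 their ratios were 1.07, 1.13 and 1.04, with intervals that held 1. HES4 and HES5 were higher in dividing cells of D10_dSMADi, at 357 against 247 CPM and 1028 against 786 CPM, and by less in D10_XAV939, at ratios of 1.18 (1.12 to 1.25) and 1.14 (1.11 to 1.18). HES1 went the other way in D10_dSMADi, at 24.3 against 40.3 CPM, and had a ratio of 0.960 (0.832 to 1.11) in D10_XAV939. HES6 was 1.93-fold lower in dividing cells of D10_XAV939, and had a ratio of 1.07 (0.856 to 1.35) in D10_dSMADi. At D24, 0.516% of cells passed the division limit, and they held 747 CPM of HES6 against 40.8 CPM in cells without these UMIs.

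Cells at D22 were also picked by UMIs of single markers, and the sets overlap. Among the 5 sets of this paragraph, HES6 was highest in those picked by proneural genes, while the CCNO cells described below held more. It had 2273 CPM in 955 cells with 5 or more NEUROD4 UMIs, 1831 CPM in 5585 cells with 5 or more NEUROG1 UMIs and 1380 CPM in 4553 cells with 5 or more STMN2 UMIs. It had 1120 CPM in 4644 cells with 2 or more SOX2 UMIs and 759 CPM in 674 cells with 2 or more UMIs of the forebrain genes DLX2 and DLX5. All these sets but the DLX cells were above the 956 CPM of the dividing cells. HES5 had 33.8 CPM in the SOX2 cells and 18.1 CPM in the STMN2 cells, and HES1 3.91 and 1.06 CPM. Over these 5 sets HES4 ranged from 25.5 CPM in NEUROD4 cells to 45.1 CPM in DLX cells.

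The 70 cells with 2 or more UMIs of CCNO, a gene of multiciliated cell formation, stood apart for HES1. They held 38 HES1 UMIs, or 37.6 CPM (26.6 to 51.6), 16.3-fold (11.3 to 22.9) above all other D22 cells. They also held 3115 CPM (3008 to 3226) of HES6, 2.27-fold above the others. Of the 70, 51 also passed the NEUROG1 limit and 56 the STMN2 limit, so the STMN2 cells include most of them. HES1 UMIs lay in 4.29% of these cells after thinning and 18.6% before, against 0.154% and 0.922% of the STMN2 cells, at medians of 13174 and 12008 UMIs.

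**Figure D4:**
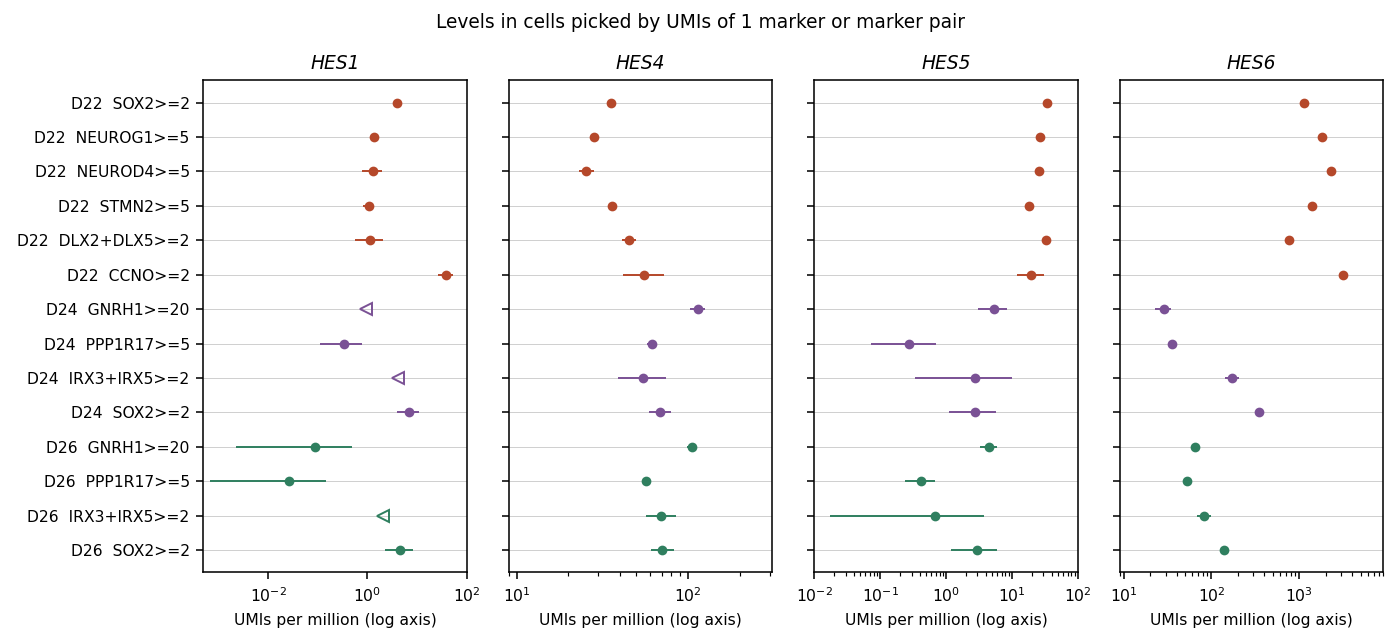
Level of HES1, HES4, HES5 and HES6 (horizontal axes, CPM, log axes) in cells of the days shown (D22 red, D24 purple, D26 green) picked by the marker UMIs named at the left; points are sums over the picked cells, bars the exact Poisson interval, and open triangles the level of 3 UMIs where none was counted. HES4 and HES5 lie further right in GNRH1 cells than in PPP1R17 cells on both days, for HES4 at 113 against 61.5 CPM and 105 against 56.9 CPM.

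At D24 and D26 the members were read in cells with 20 or more UMIs of GNRH1, which encodes the GnRH precursor, and in cells with 5 or more UMIs of PPP1R17, which the study used to mark glutamatergic neurons. Both limits were passed by 9 cells at D24 and 98 at D26, and 80 and 59 GNRH1 cells also held 2 or more SOX2 UMIs. HES4 had 113 CPM (102 to 126) in 357 GNRH1 cells and 61.5 CPM (57.5 to 65.6) in 1686 PPP1R17 cells at D24. At D26 it had 105 CPM (99.1 to 111) in 1047 GNRH1 cells and 56.9 CPM (54.5 to 59.3) in 3513 PPP1R17 cells. After thinning, HES4 UMIs lay in 16.8% and 13.5% of GNRH1 cells and in 8.48% and 8.14% of PPP1R17 cells. Before thinning these shares were 59.1% and 60.6% against 37.2% and 41.4%, at medians of 8296 and 9839 against 7811 and 9400 UMIs. The intervals of the levels did not overlap on either day.

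HES5 was scarce on these days but differed in the same direction. It had 5.27 CPM (3.07 to 8.44, 17 UMIs) in GNRH1 cells and 0.272 CPM (0.0740 to 0.696, 4 UMIs) in PPP1R17 cells at D24. At D26 it had 4.44 CPM (3.30 to 5.86, 50 UMIs) and 0.423 CPM (0.242 to 0.686, 16 UMIs). GNRH1 cells thus stood 10.7-fold (5.58 to 19.7) and 6.32-fold (4.26 to 9.32) above all other cells of their library. HES6 had no such order: it had 28.5 CPM in GNRH1 and 35.3 CPM in PPP1R17 cells at D24, and 65.0 and 53.1 CPM at D26. Cells with 2 or more SOX2 UMIs also held more HES5 than all others. They stood 4.37-fold (1.66 to 9.80, 7 UMIs) above them at D24 and 2.71-fold (1.06 to 5.78, 7 UMIs) at D26. How much the cells in both sets added to the HES5 levels of GNRH1 cells was not tested.

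The few remaining SOX2 cells, 252 at D24 and 209 at D26, held most of the HES1 UMIs. HES1 had 6.75 CPM (3.93 to 10.8) there at D24 and 4.61 CPM (2.30 to 8.25) at D26, from 17 of 27 and 11 of 19 UMIs of the library. These UMIs lay in 3.97% and 1.91% of the SOX2 cells before thinning, so a few cells carried these levels. HES6 was 9.39-fold (8.68 to 10.2) above all other cells in the SOX2 cells of D24 and 2.64-fold (2.35 to 2.95) above them at D26. In cells with 2 or more UMIs of IRX3 and IRX5, 90 at D24 and 136 at D26, HES6 had 171 CPM (142 to 204) and 82.1 CPM (68.1 to 98.1). After thinning, HES6 UMIs lay at D24 in 26.2% of SOX2 and 12.2% of IRX cells, against 5.30% of all cells. At D26 they lay in 8.61% (5.18 to 13.3) and 4.41% (1.64 to 9.36), against 7.36% of all cells, which both intervals held.

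UMIs of HES4 and HES5 were mostly found in the same D10 cells, at shares near the product of the single shares. In D10_dSMADi, 79.8% of 2416 cells held a UMI of both after thinning to 10000 UMIs, against 77.9% for the product of the single shares. In D10_XAV939, 76.1% of 2168 cells did, against 73.0%. In the same run and at the same depth, 6.05% of D0 cells held a HES4 UMI and 21.3% a HES5 UMI, and how much free RNA added to any of these shares was not tested. HES1 was found with HES5 in 17.8% and 21.9% of cells, against products of 18.4% and 23.1%. At D22, thinned to 1500 UMIs, HES4 and HES5 were found together in 0.0735% of 9523 cells, against a product of 0.166%, and at this depth few cells held either. HES5 and HES6 were found together in 2.58%, against 2.39%.

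Genes whose log2(CPM + 1) followed that of a member over the 8 libraries were ranked by Pearson correlation among 4889 genes with at least 50 CPM in 1 library. The 8 points share runs, and the break between the 2 sets is part of each pattern. The nearest to HES1 were ETV5 (r = 0.992), ADD3 (0.989) and NUP54 (0.987). ETV5, a transcription factor induced by FGF signaling, had 25.5 CPM in D5_dSMADi and 65.9 in D5_XAV939. The nearest to HES4 were RGMA (0.95), NRIP1 (0.948) and NAV1 (0.936), and to HES5 SSX2IP (0.993), TPM1 (0.985) and NEK6 (0.984). Among the nearest to HES6 were NDUFA10 (0.956) and MRPS11 (0.956).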

How the data were processed

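The 8 libraries were measured on 10× Genomics droplets. The authors aligned reads to GRCh38 and deposited UMI counts per gene and barcode without normalization. The file headers name Cell Ranger 3.1.0 for D22 to D26 and 6.1.2 for D0 to D10. The submitters' processing notes name version 3.1.

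Cells were kept by the limits the study set per library on UMIs, genes, complexity (log10 of genes over log10 of UMIs) and mitochondrial share. For D0 the complexity limit of 0.85 was read as an upper limit, which kept 1008 cells, since as a lower limit it kept 1. No doublet caller was run. D5 and D10 files hold 2480, 2919, 2778 and 2638 barcodes, the numbers of cells the study analysed, of which the limits kept 2419, 2815, 2416 and 2168. At D22 to D26 the study's numbers are those the limits kept.

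UMIs were summed over cells and given per 1000000 UMIs. Intervals (95%) are exact: Poisson for levels, binomial for shares and for the split of UMIs behind a ratio. Called means a ratio of at least 1.5 with at least 10 CPM in 1 of 2 groups, with no test. Ratio code was tested on simulated data. Shares were taken after thinning to 10000 (D0 to D10) or 1500 UMIs (D22 to D26), and no cell kept was shallower. Named genes were the 8 members, listed pathway and marker genes past 1.5-fold, and the 3 genes most correlated with HES1, HES4, HES5 and HES6. A few genes that this rule or these lists hold are not reported here. Members and lists were chosen with earlier results of these data known. Alternatives changed the filter on cells, the scaling, the threshold and the cells compared. Python 3.11.15, NumPy 2.4.6, SciPy 1.17.1 and pandas 2.3.3 were used.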

Additional observations from a re-analysis of the deposited data

How the results depend on the processing

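No paired analysis was possible because each condition was 1 library, so no replicate could be left out. At D5 the count of 3 members past 1.5-fold was 6 with genes of at least 1 UMI tested, and 2 to 4 under the other 9 alternatives. At D10 the count of 1 was 0 at 2-fold, 2 with genes of at least 1 UMI and 2 in dividing cells only. At D22 the count of 1 was 0 at 2-fold, 5 with genes of at least 1 UMI and 0 with SOX2 of at least 2 UMIs in both groups. No called member changed direction. Over all genes, those higher and lower at D5 numbered 252 and 144, 50 and 47 at 2-fold, and 4873 and 4361 with at least 1 UMI. At D10 they numbered 320 and 321, 105 and 123 at 2-fold, and 3855 and 6111 with at least 1 UMI, and 599 were higher among non-dividing cells. At D22 they numbered 1160 and 1020, 652 and 414 at 2-fold, 5141 and 7055 with at least 1 UMI, and 666 were lower with SOX2 in both groups. The levels of HES1, HES4, HES5 and HES6 over all barcodes, an alternative chosen after seeing the data, were 0.994 to 1.31 times those over cells kept.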
